A study of Mus musculus with 35 samples.

Results

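The clustered histone genes of the mouse were examined in RNA sequencing of NMuMG cells, an epithelial line from the mouse mammary gland. Members were chosen by symbol alone, as the genes named Hist1h, Hist2h, Hist3h or Hist4h in the table of 20261 genes. The 63 members comprised 6 H1, 15 H2a, 17 H2b, 12 H3 and 13 H4 genes. Each of the 10 groups held 2 libraries, from wild-type cells of the strain given as E9, kept with DMSO, a solvent used as vehicle, or with JNKi, by its name an inhibitor of the c-Jun N-terminal kinases, for 24, 48, 72 or 96 h or 7 d. Neither the compound behind JNKi nor its dose is stated in the labels used here. The treatment protocol describes 2 ng/ml TGF-β, with medium changed every 2 days, for the time course experiments. It does not say whether the cells given DMSO or JNKi also received TGF-β, a growth factor that drives epithelial cells towards a mesenchymal state. A further 15 samples of a TGF-β time course were not analysed here. Nothing in the labels says that the 2 replicates of a group came from separate cultures, so the tests measure only the spread between these libraries.

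Core histones H2A, H2B, H3 and H4 form the protein spool of the nucleosome, and the linker histone H1 binds the DNA between spools. The clustered genes are the source of the histones made during S phase, when new DNA has to be packaged. Their mRNAs end in a short conserved stem-loop, bound by the stem-loop binding protein, in place of the poly(A) tail that other mRNAs carry, and are degraded when DNA synthesis stops. Some of the genes can also give longer, polyadenylated transcripts that run past the stem-loop, a form described in cells that have left the cell cycle. A library made from polyadenylated RNA captures only the second form. The labels give total RNA as the molecule and do not say how the libraries selected it.

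Because the stem-loop separates the 2 kinds of transcript end, its letters were searched on the sense strand of the GENCODE M21 transcripts, as GGCTCTTTTNAGAGCC or GGCCCTTTTNAGGGCC, where N is any base. The letters were present in 38 of the 63 members, and in 45 of 21877 protein-coding genes (0.206%), of which 42 are clustered histone genes. A transcript annotated without its last bases cannot show the letters, and only these 2 forms were searched. Absence of the letters therefore does not show that a gene lacks a stem-loop. The sequences below, written as DNA, show the stem-loop in capitals with its flanks for members of 4 types with high levels.
Hist1h1c: aaaaGGCTCTTTTCAGAGCCaccactcc
Hist1h1d: aaacGGCTCTTTTCAGAGCCacccacaa
Hist3h2a: caaaGGCTCTTTTCAGAGCCacccacaa
Hist1h2ac: caaaGGCTCTTTTCAGAGCCcccacttt
Hist2h3c1: caaaGGCTCTTTTCAGAGCCaccacagc
Hist2h3c2-ps: caaaGGCTCTTTTCAGAGCCaccacagc
Hist1h4i: taaaGGCCCTTTTTAGGGCCaccacaaa
Hist1h4h: caaaGGCCCTTTTCAGGGCCgcccacat
The H1, H2a and H3 members shown share the stem GGCTCT paired with AGAGCC, and the H4 members have GGCCCT paired with AGGGCC. Hist2h3c1 and Hist2h3c2-ps do not differ over the stretch shown. The annotated transcripts of Hist1h2bc and Hist2h2be, the leading H2b genes, did not hold the letters.

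Gene starts were also read, because many members had the same direction over time. In the 250 bases before the RefSeq start (GRCm38.p6), on both strands and for the 56 members with an entry, CCAAT was present in 45 (80.4%) against 33.8% of 32851 promoters. TATAAA was present in 29 members (51.8%) against 12.4%, and the octamer ATTTGCAT in 13 (23.2%) against 1.6%. The octamer was in 7 of 15 H2a and 6 of 13 H2b promoters and in none of the H1, H3 or H4 ones, while CCAAT was in 3 of 12 H4 promoters. The 120 bases before the start of the leading H1, H2a, H3 and H4 genes are shown with these motifs in capitals, in either orientation. A match is a description of the letters and not of a bound site.
Hist1h1c, chr13:23738687-23738806, plus strand: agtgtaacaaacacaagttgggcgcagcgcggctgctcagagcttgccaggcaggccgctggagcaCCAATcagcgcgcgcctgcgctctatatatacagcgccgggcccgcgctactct
Hist3h2a, chr11:58954565-58954684, plus strand: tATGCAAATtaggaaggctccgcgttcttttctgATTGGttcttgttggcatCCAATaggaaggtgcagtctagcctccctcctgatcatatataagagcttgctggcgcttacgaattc
Hist2h3c1, chr3:96246565-96246684, plus strand: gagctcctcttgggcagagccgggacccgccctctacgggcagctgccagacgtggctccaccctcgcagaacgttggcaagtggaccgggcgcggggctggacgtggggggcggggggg
Hist1h4i, chr13:22041363-22041482, minus strand: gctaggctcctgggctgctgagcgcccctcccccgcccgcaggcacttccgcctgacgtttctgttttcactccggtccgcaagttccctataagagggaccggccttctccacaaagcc
The Hist3h2a stretch holds an octamer and CCAAT in both orientations, the Hist1h1c stretch 1 CCAAT, and the other two none of the searched letters.

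Values are the authors' normalized read counts, called normalized reads below. The libraries held 9492324 to 48584027 reads after the scaling of the deposited values was undone, with the lowest depth in JNKi 7 d replicate 1. Of the epithelial markers, Cdh1, Krt8, Krt18, Krt19 and Cldn4 were present in every library, whereas Epcam reached at most 12.6 normalized reads and was at 0 in 15 of 20 libraries, and Cldn3 and Cldn7 reached at most 2.4 and 4.3. Changes over time and differences between arms were tested with limma on log2(normalized reads + 1), which understates the change of low genes, for the 13896 genes with a mean of at least 10 normalized reads in at least 1 group. A gene passed at a Benjamini-Hochberg adjusted p under 0.05, and differences below are on this log2 scale with the model's standard error (SE).

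Of the 63 members, 34 passed this filter on low values (5 H1, 7 H2a, 7 H2b, 8 H3 and 7 H4). The JNKi 7 d group alone had a mean of at least 10 for each of the 34, against 12 in DMSO at 24 h, and only 22 members had such a mean outside the 7 d groups. Of the 34, 7 passed through the JNKi 7 d group alone (Hist1h2ad, Hist1h2ah, Hist1h2bh, Hist1h3f, Hist1h3i, Hist1h4a and Hist2h4). Counts over the 34 therefore include members that entered through the time, and at 7 d the arm, at which they were high. The 29 others had a group mean of at most 9.55 and are described by their range only. A level of at least 50 in some group was reached by 16 members.

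In DMSO, clustered histone genes had higher levels at 7 d than at 24 h in each type. Of the 34 tested, 24 were higher at 7 d and 0 lower by limma, where 32% of all genes tested were higher and 28% lower. The members' median difference was 2.37 (log2), also with Hist1h2ad, at 0 in both DMSO 24 h libraries, put at the bound that 3 reads per library allow, and the median of all genes was 0.06. By type, 5 of 5 H1, 5 of 7 H2a, 5 of 7 H2b, 6 of 8 H3 and 3 of 7 H4 members rose. Both 7 d libraries lay above both 24 h libraries for 30 of the 34, against 42.5% of all genes tested. Without the filter it was 36 of the 63, for which no share of unfiltered genes was taken. Among the 22 members with a group mean of at least 10 outside 7 d, 20 rose and 0 fell. The 0 lower was 0 at an unadjusted p under 0.05 and 0 with edgeR or DESeq2 on recovered reads. With no filter, 25 of the 63 rose and 1 fell (Hist1h2bk, with 7.0 and 8.6 normalized reads at 24 h and 0 and 2.7 at 7 d), against 28.4% and 18.8% of all genes.

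**Figure D1:**
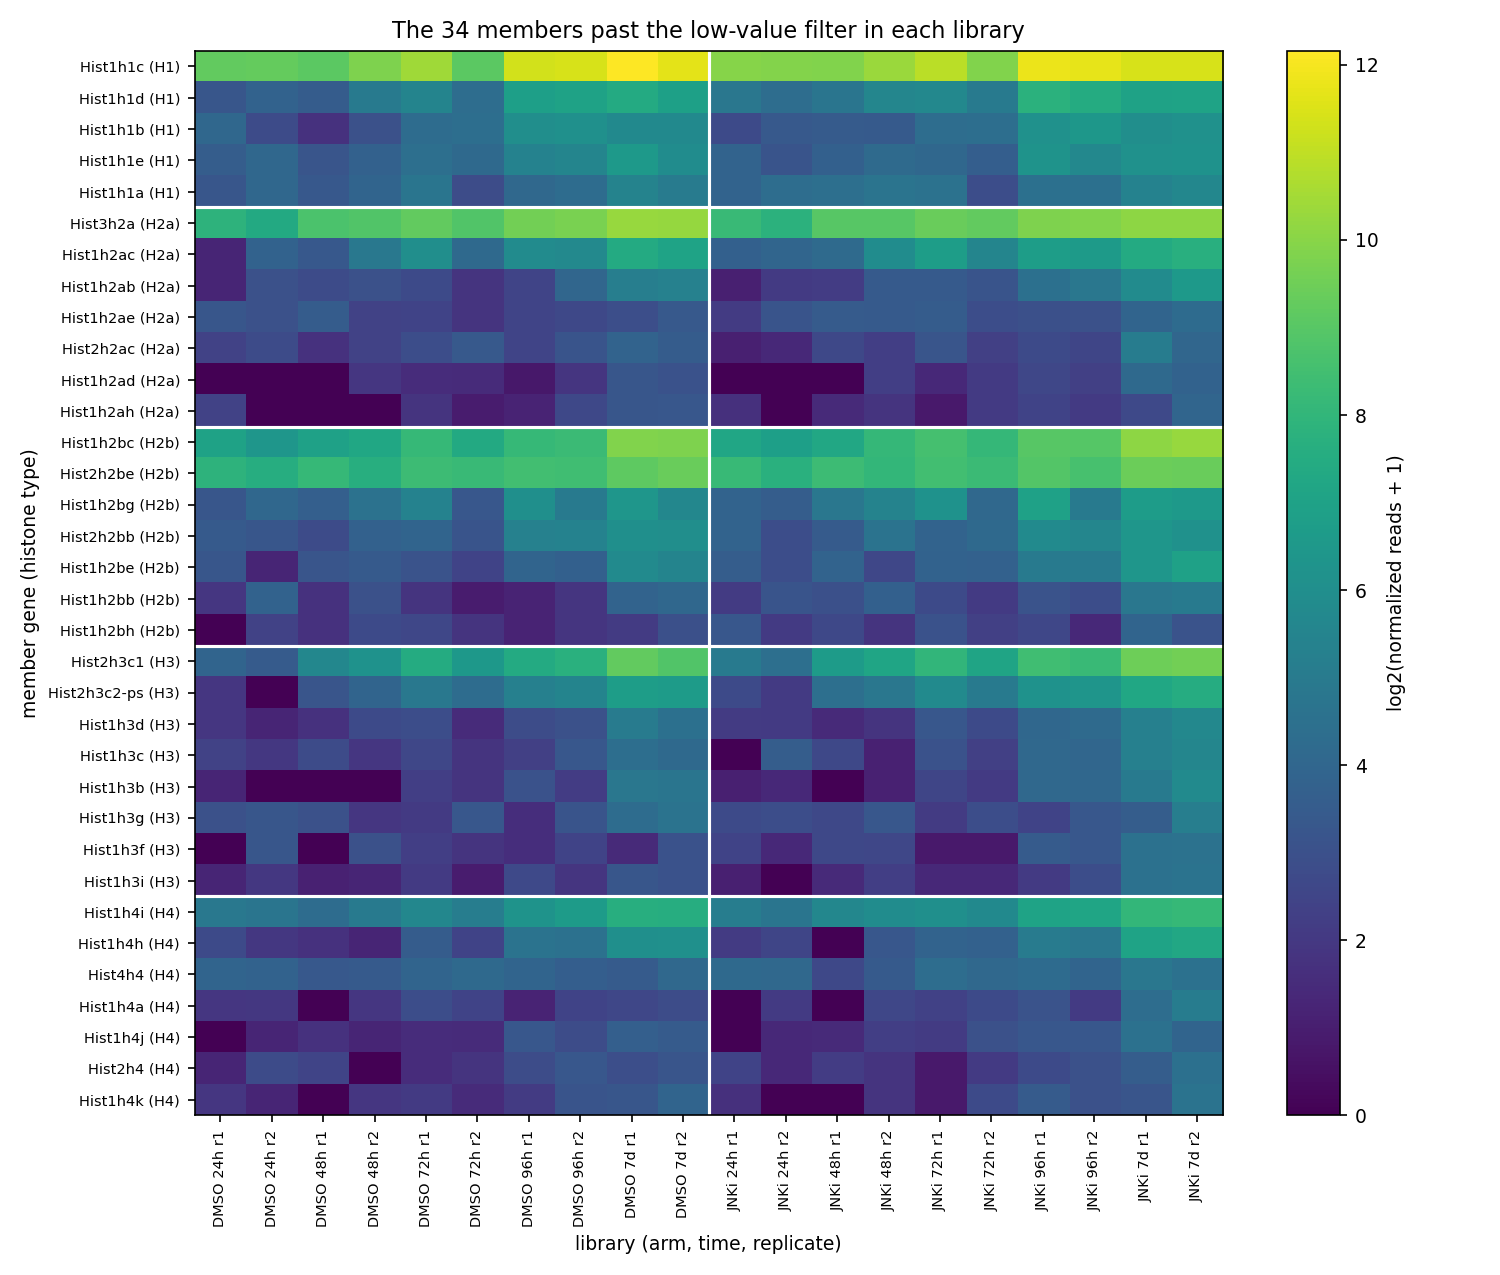
Each row is 1 of the 34 members that passed the filter, ordered by type and mean, and each column 1 library; colour gives log2(normalized reads + 1). Hist1h1c and Hist3h2a are the brightest rows, the 7 d columns are brighter than the 24 h columns in most rows of both arms, and Hist4h4 stays near the same colour in DMSO.

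H1 reads came almost wholly from Hist1h1c, which encodes the linker histone H1.2 and held 91.8% of the H1 reads over all libraries. In DMSO, Hist1h1c had 597 and 618 after 24 h, 538 and 889 after 48 h, 1365 and 539 after 72 h, 2594 and 2718 after 96 h and 4578 and 3242 after 7 d, in normalized reads. Its JNKi values were 975 and 959 after 24 h, 925 and 1308 after 48 h, 1903 and 930.0 after 72 h, 3557 and 3332 after 96 h and 2745 and 2784 after 7 d. In each arm the libraries at 96 h and at 7 d lay above every library up to 72 h, where the replicates stood far apart. In JNKi both 7 d libraries lay below both 96 h libraries. The DMSO difference between 7 d and 24 h was 2.66 (SE 0.35, limma adjusted p = 8.23e-06), and the JNKi one 1.51 (SE 0.35, adjusted p = 0.00148). At 24 h JNKi was above DMSO without overlap, and at 7 d below it without overlap, with differences of 0.67 (SE 0.35) and -0.48 (SE 0.35) that did not pass.

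Hist1h1d, the gene of linker histone H1.3, had the second highest H1 mean. The 2 libraries of each DMSO group gave Hist1h1d 8.4 and 13.0 after 24 h, 10.5 and 29.9 after 48 h, 44.2 and 19.3 after 72 h, 116 and 129 after 96 h and 173 and 120.3 after 7 d. Its values with JNKi were 27.0 and 19.2 after 24 h, 25.9 and 47.3 after 48 h, 49.7 and 31.4 after 72 h, 219 and 175 after 96 h and 128 and 133 after 7 d. In each arm the libraries at 96 h and at 7 d lay above every library up to 72 h. It rose by 3.66 (SE 0.45) in DMSO and 2.46 (SE 0.45) in JNKi between 24 h and 7 d, with limma adjusted p of 3.88e-06 and 0.000206. The highest 2 values were those of JNKi at 96 h. Hist1h1a, Hist1h1b and Hist1h1e also rose in DMSO, by 1.59, 2.38 and 2.37. Hist1h1t, the testis form, had at most 1.85 as a group mean and was not tested.

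H2a was led by Hist3h2a, which lies outside the main cluster, on chromosome 11, and held 84.2% of H2a reads. In DMSO, Hist3h2a had 235 and 164 after 24 h, 417 and 466 after 48 h, 595 and 459.9 after 72 h, 759 and 832 after 96 h and 1256 and 1214 after 7 d, in normalized reads. Its JNKi values were 303 and 221 after 24 h, 510.1 and 516 after 48 h, 676 and 594 after 72 h, 886 and 941 after 96 h and 1084 and 1098 after 7 d. In DMSO each time lay above the one before, apart from DMSO 72 h replicate 2, which lay at the level of 48 h. The rise from 24 h to 7 d was 2.65 (SE 0.17, limma adjusted p = 3.21e-09) in DMSO and 2.07 (SE 0.17, adjusted p = 7.54e-08) in JNKi. JNKi exceeded DMSO without overlap at 48 and 96 h and lay below it at 7 d, where the difference of -0.18 (SE 0.17) did not pass. Its exons overlap those of Trim17 and Gm44313, so its reads are uncertain.

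The next H2a gene was Hist1h2ac. Hist1h2ac had 1.4 and 13.0 after 24 h, 9.3 and 28.5 after 48 h, 64.4 and 16.7 after 72 h, 56.9 and 52.3 after 96 h and 173 and 129.8 after 7 d normalized reads in DMSO. Its values with JNKi were 12.4 and 14.4 after 24 h, 17.3 and 58.5 after 48 h, 109 and 45.1 after 72 h, 107 and 98.3 after 96 h and 175 and 201 after 7 d. The 7 d libraries were the highest of each arm, and at 72 h replicate 1 reached the level of 96 h while replicate 2 did not. Hist1h2ac rose by 4.70 (SE 0.74) in DMSO and 3.71 (SE 0.74) in JNKi, with limma adjusted p of 5.36e-05 and 0.000493. Hist1h2ab, Hist1h2ad and Hist1h2ah rose in DMSO, and Hist1h2ae and Hist2h2ac did not pass, with differences of 0.03 and 1.14. Hist1h2ad was at 0 in all 4 libraries of 24 h and at 8.4 and 7.4 normalized reads in DMSO at 7 d. The other 8 H2a genes had group means of at most 8.35.

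Unlike H1 and H2a, H2b reads were shared by a pair of genes, Hist1h2bc with 44.3% of them over all libraries, and Hist2h2be. In DMSO the mean of Hist2h2be was the higher one at each time up to 96 h (209 against 104 normalized reads at 24 h and 349 against 298 at 96 h), and that of Hist1h2bc at 7 d. In DMSO, Hist1h2bc had 127 and 82.2 after 24 h, 123 and 149.6 after 48 h, 278 and 167 after 72 h, 281 and 315 after 96 h and 938 and 907 after 7 d, in normalized reads. Its JNKi values were 147 and 115 after 24 h, 157 and 269 after 48 h, 376 and 274 after 72 h, 512 and 499 after 96 h and 1076 and 1243 after 7 d. The 7 d libraries of both arms stood well above every earlier one. Between 24 h and 7 d Hist1h2bc rose by 3.16 (SE 0.27, limma adjusted p = 7.44e-08) in DMSO and 3.14 (SE 0.27, adjusted p = 1.3e-07) in JNKi. It lay higher in JNKi than in DMSO without overlap at 48 h, 96 h and 7 d, and overlapped at 24 and 72 h.

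Hist2h2be, whose annotated transcript is 2620 bases long and unique in every 50-base window, was the other H2b gene with a high level. The 2 libraries of each DMSO group gave Hist2h2be 231 and 187 after 24 h, 279 and 199.5 after 48 h, 321 and 297 after 72 h, 356 and 342 after 96 h and 567 and 669 after 7 d. Its values with JNKi were 296 and 213 after 24 h, 318 and 261 after 48 h, 356 and 309 after 72 h, 474 and 399 after 96 h and 690.4 and 664 after 7 d. In DMSO both 72 h libraries lay above both at 24 h, and in each arm those at 7 d stood above all earlier ones. It rose by 1.56 (SE 0.18, limma adjusted p = 2.64e-06) in DMSO and 1.43 (SE 0.18, adjusted p = 8.58e-06) in JNKi. Hist1h2be, Hist1h2bg and Hist2h2bb rose in DMSO by 3.40, 2.36 and 2.68, and Hist1h2bb and Hist1h2bh did not pass (1.08 and 1.35). The 10 H2b genes not tested had group means of at most 9.55.

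H3 had the largest relative gain of its summed reads and was led by Hist2h3c1, with 67.3% of H3 reads. In DMSO, Hist2h3c1 had 14.1 and 10.1 after 24 h, 49.0 and 72.7 after 48 h, 177 and 87.9 after 72 h, 169 and 211 after 96 h and 601 and 462 after 7 d, in normalized reads. Its JNKi values were 31.5 and 20.8 after 24 h, 102 and 143 after 48 h, 257 and 138 after 72 h, 345 and 299 after 96 h and 709.8 and 751 after 7 d. Both 48 h libraries already lay above both 24 h libraries, and the 7 d libraries above all others. The rise from 24 h to 7 d was 5.35 (SE 0.34, limma adjusted p = 3.36e-09) in DMSO and 4.78 (SE 0.34, adjusted p = 2.08e-08) in JNKi. JNKi lay above DMSO without overlap at 24 h, 48 h, 96 h and 7 d, with differences of 1.04, 1.00, 0.76 and 0.47 (SE 0.34 each) that did not pass.

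Hist2h3c2-ps, whose symbol marks it as a pseudogene, followed its near-identical neighbour Hist2h3c1. Hist2h3c2-ps had 2.8 and 0 after 24 h, 8.2 and 14.2 after 48 h, 27.8 and 18.5 after 72 h, 38.2 and 44.3 after 96 h and 109 and 101 after 7 d normalized reads in DMSO. Its values with JNKi were 5.6 and 3.2 after 24 h, 20.8 and 27.4 after 48 h, 54.6 and 29.8 after 72 h, 72.6 and 80 after 96 h and 149.7 and 185 after 7 d. Its order of times was that of Hist2h3c1 in both arms, and only 36.5% of its 50-base windows occur in no other gene. It rose by 5.76 (SE 0.48) in DMSO and by 4.99 (SE 0.48) in JNKi, with limma adjusted p of 7.24e-08 and 4.76e-07. These differences depend on the pseudocount, because the DMSO 24 h libraries lay at or near 0. The labels do not say how reads were divided between the copies.

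The genes of the main cluster on chromosome 13 that encode H3 were lower. In DMSO, Hist1h3b had 1.4 and 0 after 24 h, 0 and 0 after 48 h, 3.8 and 2.6 after 72 h, 7.4 and 3.5 after 96 h and 26.9 and 25.7 after 7 d, in normalized reads. Its JNKi values were 1.1 and 1.6 after 24 h, 0 and 1.2 after 48 h, 4.9 and 3.2 after 72 h, 16.4 and 15.8 after 96 h and 30.5 and 54.6 after 7 d. Hist1h3b was at or near 0 up to 48 h and highest at 7 d in both arms. It rose by 4.14 (SE 0.54) in DMSO and 4.16 (SE 0.54) in JNKi, with limma adjusted p of 8.1e-06 and 9.7e-06, sizes that depend on the pseudocount in the same way. Hist1h3c, Hist1h3d and Hist1h3i also rose in DMSO, by 2.11, 3.18 and 1.54, and Hist1h3f and Hist1h3g did not pass (0.62 and 1.32). The 4 H3 genes not tested had group means of at most 9.4.

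The highest H4 gene was Hist1h4i, with 54.0% of H4 reads over all libraries and 40.0 and 36% in the DMSO 24 h libraries. The 2 libraries of each DMSO group gave Hist1h4i 28.1 and 25.9 after 24 h, 18.7 and 29.9 after 48 h, 48.0 and 34.3 after 72 h, 74.3 and 100.2 after 96 h and 199 and 193 after 7 d. Its values with JNKi were 34.9 and 25.6 after 24 h, 48.4 and 58.5 after 48 h, 66.0 and 53.1 after 72 h, 133 and 139.5 after 96 h and 266 and 282 after 7 d. Values at 96 h and 7 d stood above all earlier ones in both arms. Hist1h4i rose by 2.81 (SE 0.26, limma adjusted p = 1.72e-07) in DMSO and 3.15 (SE 0.26, adjusted p = 8.26e-08) in JNKi. It lay higher in JNKi without overlap at 48 h, 72 h, 96 h and 7 d.

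Hist1h4h was second among H4 genes. In DMSO, Hist1h4h had 5.6 and 2.9 after 24 h, 2.3 and 1.4 after 48 h, 10.7 and 4.4 after 72 h, 23.4 and 22.2 after 96 h and 65.6 and 68.9 after 7 d, in normalized reads. Its JNKi values were 3.4 and 4.8 after 24 h, 0 and 8.7 after 48 h, 13.8 and 12.9 after 72 h, 32.8 and 26.9 after 96 h and 133 and 158 after 7 d. The 7 d values were the highest of each arm, and those of JNKi lay above those of DMSO without overlap. The rise to 7 d was 3.75 (SE 0.69, limma adjusted p = 0.000215) in DMSO and 4.85 (SE 0.69, adjusted p = 2.23e-05) in JNKi. Hist1h4j rose in DMSO by 2.94, and Hist1h4a, Hist1h4k and Hist2h4 did not pass (0.76, 1.98 and 1.05). Hist4h4, alone on chromosome 6, had 14.1 and 13.0 normalized reads at 24 h and 10.1 and 16.2 at 7 d in DMSO, with a difference of -0.07 (SE 0.35, limma adjusted p = 0.865). In JNKi it had 16.9 and 16 at 24 h and 27.7 and 22.4 at 7 d, and its difference of 0.57 (SE 0.35) did not pass. The 6 H4 genes not tested had group means of at most 8.55.

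Summed over the members of a type, DMSO reads at 7 d were 6.45 times those at 24 h for H1, 6.09 for H2a, 4.68 for H2b, 16.8 for H3 and 4.58 for H4. H1 sums were 655 ± 19.9 normalized reads at 24 h and 4224 ± 1010 at 7 d (SD, n = 2). H3 sums were 44.8 ± 5.8 and 753 ± 111 (SD, n = 2). In JNKi the same ratios were 3.0, 4.79, 4.72, 17.5 and 8.53. Across all 63 members the sum was 46.9 ± 3.71 RPM (reads scaled to a common library total) at 24 h and 306 ± 38.3 at 7 d in DMSO, and 65.1 ± 6.82 and 323 ± 19.5 in JNKi (SD, n = 2). The H3 ratio was the largest in both arms. The top gene held 89.5 to 94.7% of a library's H1 sum and 74.0 to 91.1% of its H2a sum, but 24.1 to 54.6% for H2b, 20.7 to 73.7% for H3 and 36 to 69.9% for H4. Without Hist2h3c1 the H3 difference in DMSO was 2.76 on the log2 scale, and without Hist1h4i that of H4 was 1.56. In bulk RNA, more cells that express a gene and more of its RNA per cell cannot be told apart.

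**Figure D2:**
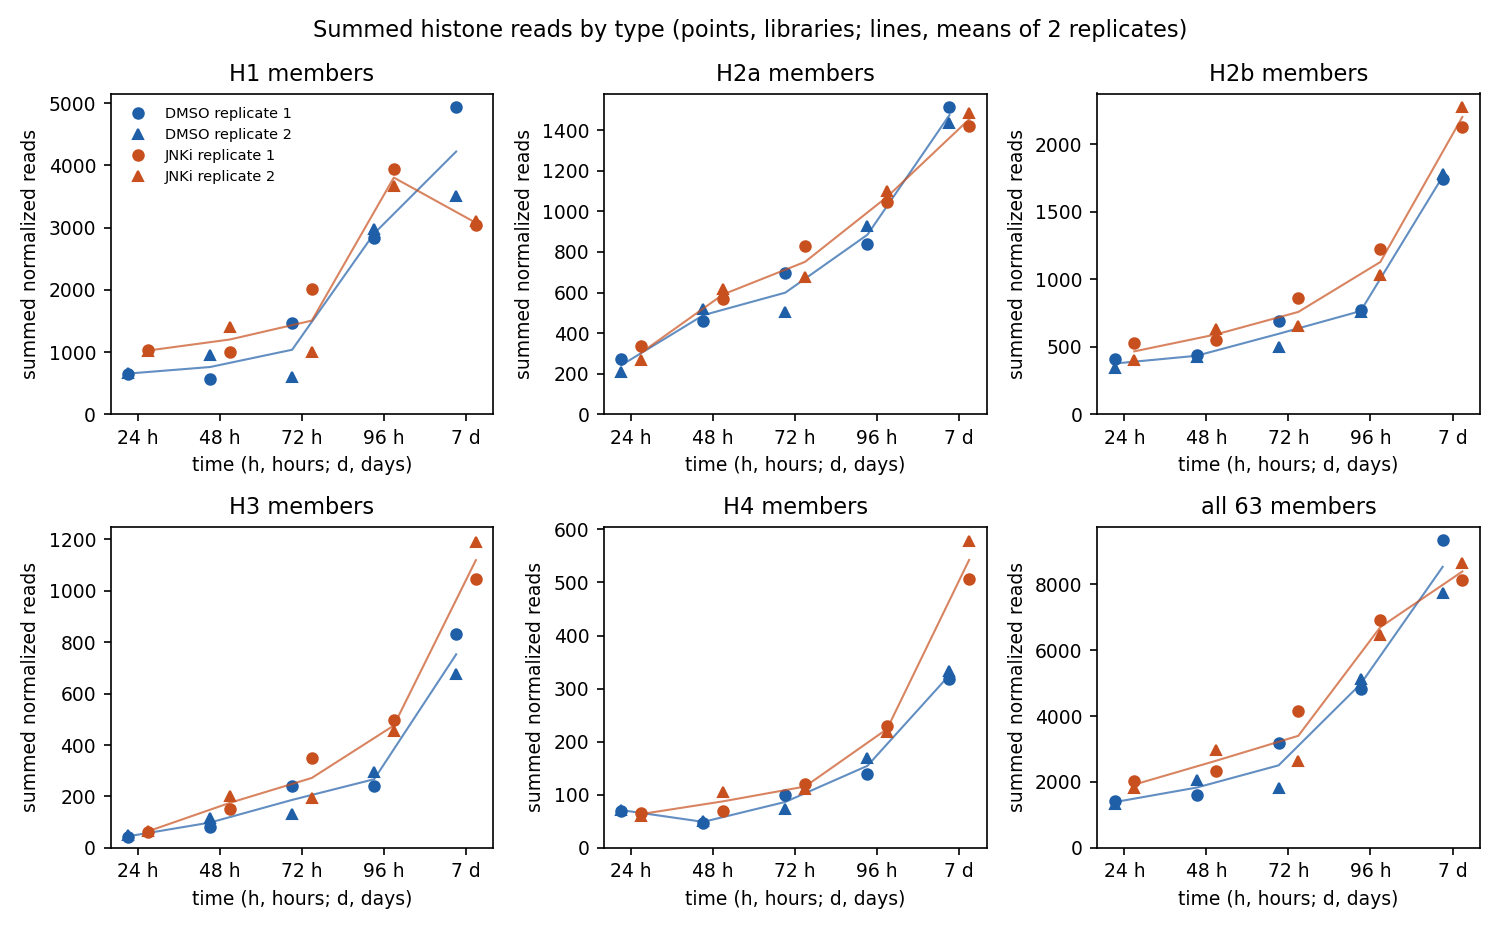
Summed normalized reads of the members of each type (vertical axis, from 0) at each time (horizontal axis), with circles and triangles for replicates 1 and 2 and lines through the means. In DMSO the 7 d points are the highest in each panel, the H1 sum in JNKi is higher at 96 h than at 7 d, and the circles lie above the triangles at 72 h.

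Compared with 24 h in DMSO, 18 of the 34 were higher at 96 h and 0 lower by limma (32.7% and 30.5% of all genes). The 0 lower was 1 at an unadjusted p under 0.05 and 1 with edgeR, Hist1h2bb in both, and 0 with DESeq2. The 18 comprised 4 H1, 2 H2a, 5 H2b, 4 H3 and 3 H4 members, with Hist1h1d at 3.43 (SE 0.45), Hist2h3c1 at 3.88 (SE 0.34) and Hist2h2be at 0.74 (SE 0.18). From 96 h to 7 d, 12 were higher and 0 lower (21% and 15.5% of all genes), and 0 were lower at an unadjusted p under 0.05 or with edgeR or DESeq2. These were 2 H2a, 4 H2b, 5 H3 and 1 H4 members and no H1 member, with Hist1h2bc at 1.63 (SE 0.27), Hist2h3c1 at 1.47 (SE 0.34) and Hist1h1c at 0.54 (SE 0.35), which did not pass. The 12 became 7 when DMSO 96 h replicate 1 or DMSO 7 d replicate 2 was left out. Comparisons with 24 h share those libraries.

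In JNKi, 32 of the 34 were higher at 7 d than at 24 h and 0 lower by limma (31.7% and 26.3% of all genes), and 0 were lower at an unadjusted p under 0.05 or with edgeR or DESeq2. The exceptions were Hist1h2bh and Hist4h4. Both 7 d libraries lay above both 24 h libraries for 33 of the 34, against 43.4% of all genes tested. Without the filter it was 46 of the 63, for which no share of unfiltered genes was taken. Of the 22 members that had a mean of at least 10 outside 7 d, 21 were higher by limma. The 2 changes over time were compared by an interaction term. By limma 0 of 34 members passed (2.1% of all genes), and 0 with edgeR or DESeq2. At an unadjusted limma p under 0.05 there were 6 members, and 2288 of the 13896 genes tested. The term was largest for Hist1h4a (2.92, SE 1.18) and Hist1h3i (2.51, SE 0.79) and lowest for Hist1h1d (-1.20, SE 0.63) and Hist1h1c (-1.15, SE 0.49). Hist1h4a and Hist1h3i passed the filter only through the JNKi 7 d group, so the direction of their terms is no support.

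The effect of the inhibitor was compared at each time. By limma 0 of 34 passed at 24 h, 48 h, 72 h, 96 h and 7 d, where 0%, 0%, 0.072%, 0.0072% and 10.2% of all genes did. At an unadjusted p under 0.05 the counts were 5, 5, 2, 8 and 4. Of the 13896 genes tested, 610, 521, 1125, 677 and 3690 had such a p at these times. On recovered reads edgeR called 0, 0, 0, 0 and 4 members and DESeq2 0, 0, 0, 0 and 1, where either tool called 11.4% of all genes at 7 d. The 4 genes that edgeR called at 7 d were Hist1h2be, Hist1h3i, Hist1h4a and Hist1h4h, each higher in JNKi, and DESeq2 called Hist1h4h. Hist1h3i and Hist1h4a passed the filter only through the JNKi 7 d group, so their direction is no support. Hist1h2be had 55.5 and 43.3 normalized reads in DMSO and 83.2 and 121.8 in JNKi at 7 d. Hist1h3i had 8.4 and 7.4 normalized reads in DMSO and 22.2 and 23.8 in JNKi at 7 d. Hist1h4a had 5.0 and 6.1 normalized reads in DMSO and 19.4 and 32.9 in JNKi at 7 d. The JNKi libraries were the higher ones for all 3. A fit of the DMSO and JNKi 7 d libraries alone called 9 (12% of all genes), of which 8 were higher and Hist1h1c lower, and a pseudocount of 8 gave 6 (14.6%), each higher. Both fits kept the 7 members that passed the filter only through JNKi at 7 d, whose direction is no support.

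The differences themselves were mostly above 0 after 24 h. They were positive for 19, 27, 26, 32 and 29 of the 34 at the 5 times, and for 49.4%, 49.0%, 50.7%, 51.4% and 53.0% of all genes. Their medians were 0.07, 0.54, 0.44, 0.49 and 0.64, while those of all genes were between 0.0 and 0.02. Both JNKi libraries lay above both DMSO libraries for 6, 11, 8, 24 and 25 members, against 14.7%, 13.8%, 18.3%, 19.7% and 32% of all genes. Both lay below for 3, 0, 2, 0 and 2, against 12.3%, 15.3%, 18.1%, 19.7% and 26.2%. The 7 members that passed the filter through JNKi at 7 d alone had to lean this way at 7 d. Among the 22 with a group mean of at least 10 outside 7 d, the 7 d difference was positive for 18, with a median of 0.48, and JNKi lay above DMSO without overlap for 16. At 96 h the 24 included all 5 H1 genes, with 3557 and 3332 normalized reads of Hist1h1c in JNKi against 2594 and 2718 in DMSO. At 7 d the 2 below were Hist1h1c and Hist3h2a, the leading H1 and H2a genes. The type medians at 7 d were -0.04 for H1, 0.84 for H2a, 0.64 for H2b, 0.69 for H3 and 0.91 for H4. The 7 members named above are H2a, H2b, H3 and H4 genes. The medians of these types, unlike that of H1, therefore include members that had to lean this way. Type sums in JNKi were 0.729, 0.986, 1.25, 1.49 and 1.67 times those in DMSO at 7 d for H1, H2a, H2b, H3 and H4.

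**Figure D3:**
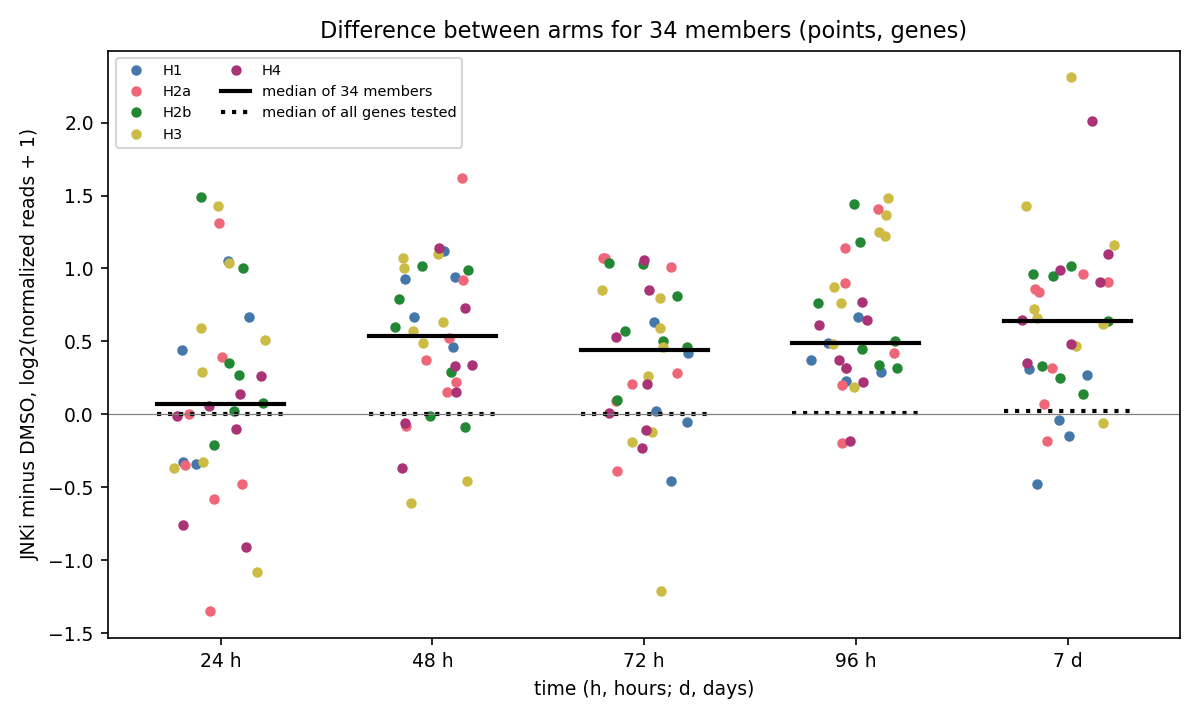
Each point is 1 of the 34 members, coloured by type, at its difference between JNKi and DMSO on the log2(normalized reads + 1) scale for each time; solid bars are their medians and dotted bars those of all genes tested. The solid bars lie at 0.07 at 24 h and between 0.44 and 0.64 later, the dotted bars lie near 0, and the lowest point at 7 d is Hist1h1c.

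Replicates differed among the clustered genes in a way that depended on time. At 72 h replicate 2 was lower than replicate 1 for 29 of 34 members in DMSO and 23 of 34 in JNKi, with median differences of -0.63 and -0.29, against 52.6% and 51.9% of all genes. For the 8 members with a mean of at least 50 over all libraries, replicate 2 was lower in 8 of 8 in both arms, with medians of -0.87 and -0.55. Hist1h1c had 1365 and 539 normalized reads in DMSO and 1903 and 930.0 in JNKi at that time. At 48 h the order was the opposite, with replicate 2 lower for 7 and 9 of 34 and medians of 0.57 and 0.49. Neat1, a long nuclear RNA, also had a wide spread at 72 h. It had 10918 ± 7030 normalized reads in DMSO and 9917 ± 6820 in JNKi (SD, n = 2). Its sum with Malat1, also nuclear, was higher in replicate 2, at 781 and 1090 RPM in DMSO and 803 and 1030 in JNKi. Summed small RNAs without a poly(A) tail were too, at 64.1 and 79.2 RPM in DMSO and 50.9 and 66.3 in JNKi. These orders are the opposite of the histone one at 72 h. Without the 72 h libraries, an alternative chosen after seeing the data, 25 members rose in DMSO by 7 d and Hist1h1c alone passed the interaction, as lower in JNKi.

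**Figure D4:**
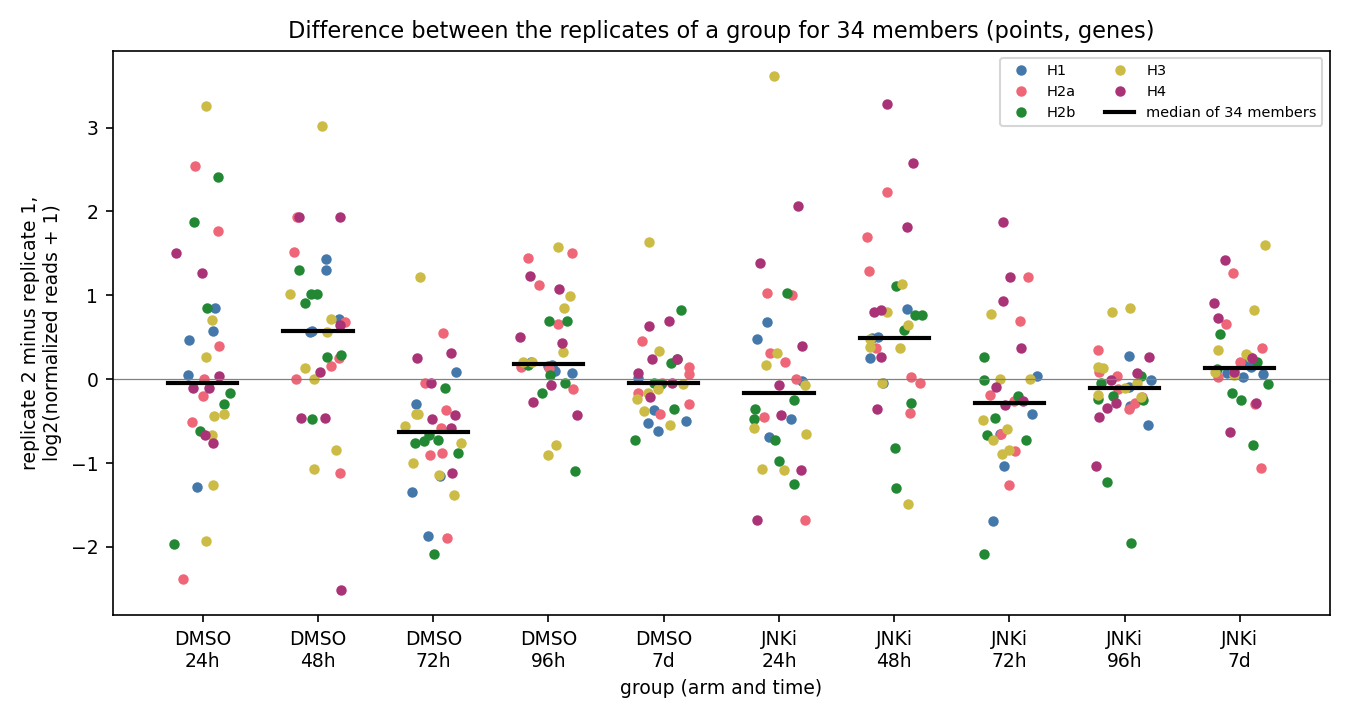
Each point is 1 of the 34 members at the difference of replicate 2 from replicate 1 within a group, on the log2(normalized reads + 1) scale, and the bars are medians. The bars lie at 0.57 and 0.49 for 48 h and at -0.63 and -0.29 for 72 h in DMSO and JNKi, and near 0 at 7 d.

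The leading H1, H2a, H2b and H3 genes had annotated transcripts of at least 1000 bases, and Hist1h4i and Hist1h4h, the leading H4 genes, shorter ones of 727 and 470 bases. Of the 63 members, 16 have an annotated transcript of at least 1000 bases, and 15 of these passed the filter and 10 had a group mean of at least 50, against 19 and 6 of the 47 shorter ones. Compared per kilobase of the longest transcript, the median level over all libraries was 13.8 normalized reads for the 16 and 7.25 for the 47. These lengths are of another build than the counts and may differ from those of the gene models counted. Levels per kilobase were 1190 for Hist1h1c, 348 for Hist1h2bc, 308 for Hist3h2a, 142 for Hist2h2be, 128 for Hist1h4i and 127 for Hist2h3c1. By the stem-loop letters, 21 transcripts run on for at least 100 bases past them (16 tested, 10 with a group mean of at least 50), 17 end within 100 bases (7 and 2) and 25 lack them (11 and 4). Some of the 25 are short as annotated, such as Hist1h4k with 312 bases and Hist2h2bb with 381, and may end before the stem-loop. The stretch past the letters was 840 bases in Hist1h1c, 1643 in Hist3h2a, 1167 in Hist2h3c1, 330 in Hist1h4i and 46 in Hist1h4h. Which form the reads came from cannot be told from counts per gene.

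**Figure D5:**
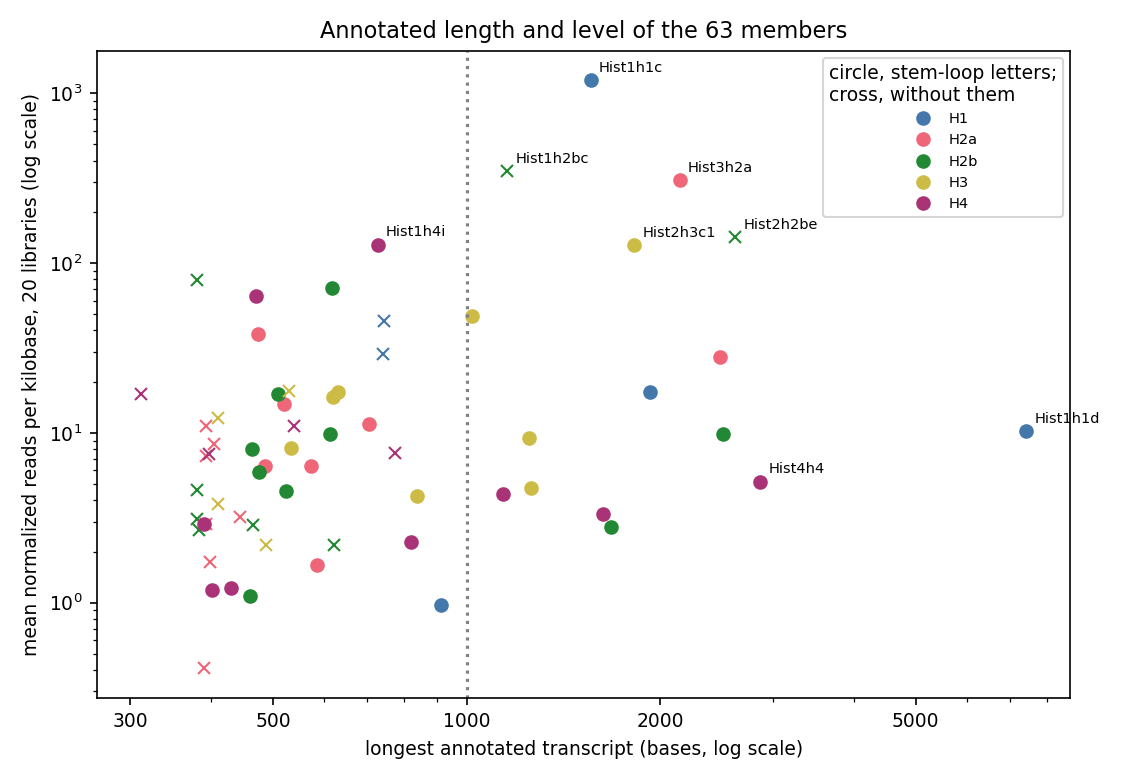
Each point is 1 of the 63 members at the length of its longest annotated transcript (log scale) and its mean normalized reads per kilobase over 20 libraries (log scale); circles hold the stem-loop letters, crosses do not, and the dotted line marks 1000 bases. Hist1h1c is highest at 1190 per kilobase, and 5 of the 6 highest points lie right of the line, with Hist1h4i the exception.

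Near-identical copies limit what single members show. The median member had 56.2% of its 50-base windows in no other gene, with medians of 98.8% for H1, 42.0% for H2a, 59.9% for H2b, 42.8% for H3 and 60.5% for H4, and 25 of 63 were under 50%. Exons of 21 members overlap another gene, among them all 15 H2a members. Of 17 members with at least 80% unique windows, 13 were tested and 10 rose in DMSO by 7 d, where 32% of all genes tested rose. Of 25 under 50%, 8 were tested and 6 rose. Of 11 with at least 80% unique windows and no exon overlap, 8 were tested and 5 rose. Hist1h1c (91.5% unique) and Hist2h2be (100%) are among the first, and Hist2h3c2-ps (36.5%) and Hist1h3b (39.6%) among the second.

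Other genes of histone supply were compared between 24 h and 7 d in DMSO, where 32% of all genes tested rose and 28% fell by limma. Of 10 tested genes for replacement histones, which are made outside S phase and polyadenylated, 0 rose and 7 fell by limma, with a median of -0.87. The replacement histone gene H2afz fell from 19897 ± 4250 to 9139 ± 77.3 normalized reads (SD, n = 2), a difference of -1.11 (SE 0.13), and Cenpa, the centromeric H3, fell by 1.46 (SE 0.16). Of 33 genes for histone mRNA 3′ processing, 1 rose and 20 fell, with Slbp, the stem-loop binding protein, at -0.96 (SE 0.13, limma adjusted p = 1.18e-05). Among 24 histone chaperones 3 rose and 16 fell, with Nasp, a chaperone of H3 and H4, at -1.45 (SE 0.13). Of 41 genes of S phase and DNA replication 0 rose and 38 fell, with a median of -0.95 and Pcna, the replication clamp, at -1.27 (SE 0.14). At 96 h in DMSO 41 of 41 had fallen from 24 h (30.5% of all genes). From 96 h to 7 d 27 rose and 0 fell (21% and 15.5% of all genes). In JNKi 0 rose and 31 fell between 24 h and 7 d (31.7% and 26.3% of all genes).

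RNAs that carry no poly(A) tail were followed as a separate readout of library make-up. Of 37 tested small RNAs of this kind, 4 rose and 2 fell by 7 d in DMSO (32% and 28% of all genes), with a median of 0.01. By 96 h 16 rose and 0 fell (32.7% and 30.5% of all genes). Their summed reads were 41.2 to 51.3 RPM at 24 h, 87.8 to 101 at 96 h and 44.9 to 57.6 at 7 d in DMSO. In JNKi at 7 d they were 202 in replicate 1, the library of lowest depth, and 59.4 in replicate 2. The part of the library make-up in the histone values was not tested. Of the long nuclear RNAs, Neat1 rose by 2.27 (SE 0.52) and Malat1 by 1.25 (SE 0.18) between 24 h and 7 d in DMSO. Neat1 was higher at 96 h, with 46037 ± 5780 normalized reads against 22969 ± 1380 at 7 d (SD, n = 2).

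Reads of silent genes and of markers of other cell types also moved with time. Between 24 h and 7 d in DMSO 32% of all genes tested were higher and 28% lower by limma. The summed reads of 527 olfactory and vomeronasal receptor genes, each with a mean under 10, were 1.67 to 2.18 RPM in DMSO at 24 h and 7.74 to 9.49 at 7 d, and 16.4 to 18.5 in JNKi at 7 d. Of all 63 members, 57 lay above the 95th percentile of these receptors per kilobase in DMSO at 7 d (0.798 normalized reads per kilobase), where the members' median was 9.03 per kilobase. Leukocyte markers summed to 0.381 to 0.436 RPM in DMSO at 24 h, 2.13 to 2.4 at 7 d and 3.27 to 4.15 in JNKi at 7 d, with 3 of 3 tested genes higher in DMSO at 7 d and Cd3e and Emr1 at 0 in 15 and 17 of 20 libraries. Endothelial markers summed to 1.95 to 3.0, 10.9 to 12.5 and 15.6 to 16.3 in the same groups, with 3 of 3 tested higher. Cdh5 was present in every library, at 59.1 to 371.5 normalized reads, while the other 4 reached at most 26.6 and Tie1 was at 0 in 13 libraries. Adipocyte markers summed to at most 1.05 in JNKi at 7 d, and 0 of 4 passed the filter. Epithelial markers summed to 11300 to 11500 RPM at 24 h and 4700 to 6040 at 7 d in DMSO, where 1 of 6 tested rose and 5 fell. Mesenchymal markers summed to 4380 to 4860 RPM at 24 h and 9640 to 10800 at 7 d in DMSO, where 6 of 7 rose and 1 fell. In JNKi at 7 d they summed to 5690 to 6180, and 4 of 7 were lower than in DMSO (10.2% of all genes differed between arms, in either direction). The part of these reads and markers in the histone differences was not tested.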

How the data were processed

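RNA sequencing of 35 samples was deposited, of which the 20 DMSO and JNKi libraries were used. Their deposited table gives 20261 genes as normalized read counts, a signal per gene that the authors made with TopHat, HTSeq and DESeq on build mm9, per the submitters' processing notes, with versions not given in the sources used here. Undoing the scaling gave whole reads within 0.1 read for 100% of values, 9492324 to 48584027 per library, used for edgeR 4.0.16, DESeq2 1.42.0 and RPM. The time course table was not used, because its values could not be assigned to columns.

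The main test was limma 3.58.1 in R 4.3.3. It was fitted to log2(value + 1), letting the variance follow the mean level, with a mean for each group and the 20 libraries together, for the 13896 genes with a group mean of at least 10. P-values were Benjamini-Hochberg adjusted over these genes at 0.05. The members and lists were chosen with earlier results of these data known. Genes given value by value were the 2 of highest mean in each type and the largest rises in DMSO by 7 d; others named lie outside that rule and were chosen after their values were seen. Type sums were not tested. Transcript lengths, stem-loop letters and unique windows came from GENCODE M21 and promoters from RefSeq (GRCm38.p6), another build than that of the files. Levels per kilobase divide the deposited values by these lengths, which may differ from those of the gene models counted. Alternatives were the pseudocount, filter, scaling, tool, samples fitted, replicate block and each library left out. The limma fit was run on simulated counts with a fixed dispersion and no shared replicate effect. Changes were set only in genes with a mean of at least 20 normalized reads, so members below that were not covered.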

Additional observations from a re-analysis of the deposited data

How the results depend on the processing

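With 2 libraries per group, low members are limited by depth. Leaving out 1 library in turn gave 19 to 26 members higher in DMSO at 7 d than at 24 h, 15 to 18 at 96 h with 0 to 1 lower, 7 to 14 from 96 h to 7 d, 25 to 33 in JNKi at 7 d, and 0 to 1 between arms at 24 h. Of the members described one by one, Hist1h1d reversed from 96 h to 7 d, at -0.02 without DMSO 7 d replicate 1 and 0.50 without replicate 2.

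Without a filter 1 member was lower in DMSO at 7 d, 2 at 96 h (Hist1h2ag and Hist1h2bk) and 1 in JNKi at 7 d. With edgeR 1 was lower at 96 h. With a group mean of at least 50, 16 were higher in JNKi at 7 d, since only 16 were tested. Between arms at 7 d, 6 passed with a pseudocount of 8, 2 without a filter, 9 with only the groups compared, 4 with edgeR and 1 with DESeq2. The interaction had 1 with a pseudocount of 8 (Hist1h3i), 1 with only the groups compared and 1 without the 72 h libraries (Hist1h1c in both). Hist1h3i passed the filter only through JNKi at 7 d, so its direction is no support. The causes were not tested.

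On the log2 scale, type sums of 7 d over 24 h in DMSO ranged over left-out libraries from 2.42 to 2.91 for H1, 2.42 to 2.82 for H2a, 2.1 to 2.37 for H2b, 3.91 to 4.21 for H3 and 2.16 to 2.23 for H4. Those of JNKi over DMSO at 7 d ranged from -0.68 to -0.19, -0.06 to 0.02, 0.27 to 0.37, 0.43 to 0.73 and 0.64 to 0.83. Without the top gene the first ratio was 1.63 for H2b, 2.76 for H3 and 1.56 for H4, and the second 0.0 for H1, 0.60 for H2a and 1.05 for H4. In RPM the first was 2.29 for H4, and the second 0.08 for H2a and 0.42 for H2b.

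The replicate numbers are not stated to pair samples. Deviations of same-numbered DMSO and JNKi libraries correlated at 0.73, 0.59, 0.72, 0.53 and 0.07 over 9605 genes at the 5 times. With a replicate block over all libraries 26, 18, 13 and 32 members were higher in the time comparisons and 0 differed between arms. With a replicate block within each time, 2, 3, 2, 1 and 2 of 34 differed between arms, where 0.137%, 0.108%, 2.4%, 0.712% and 25.3% of all genes did. These were Hist1h1c at 24, 48 and 72 h and Hist2h3c1 at 24 and 48 h. Hist1h4i at 48 h and Hist1h2bc at 72 and 96 h also differed, and all up to 96 h were higher in JNKi. At 7 d they were Hist1h1c, lower in JNKi, and Hist1h4a, higher. Hist1h4a passed the filter only through JNKi at 7 d, so its direction is no support.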
